A study of Homo sapiens with 27 samples.

Results

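Endothelial-to-mesenchymal transition is the process in which endothelial cells lose their junctions and identity and take on features of mesenchymal cells such as smooth muscle cells and fibroblasts. Transcription factors of the Snail, ZEB and TWIST families repress endothelial and junction genes, and TGF-beta signalling through SMAD2 and SMAD3 is a well known inducer of the process in aortic endothelium. The genes that rise during it include vimentin, N-cadherin and contractile genes driven by serum response factor. The 10 markers described here were chosen by name: the regulators SNAI1, SNAI2, TWIST1 and ZEB1, the mesenchymal markers VIM, CDH2 and S100A4, and the contractile genes TAGLN, ACTA2 and CNN1. Of these 10 markers, 8 were analysed among 14008 genes, and TWIST1 and CNN1 were not analysed here.

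The cells were teloHAEC, a purchased immortalised line of human aortic endothelial cells, and RNA was sequenced from transcript 3' ends 2 days after Cas9 ribonucleoprotein was electroporated into 150000 cells per replicate. Experiment set A held 4 libraries from cells treated with guides flanking a SMAD3 enhancer, 4 from cells given a guide against HPRT (the positive control) and 4 from cells given a non-targeting guide (the negative control). Set B held 4 libraries with guides flanking an enhancer of LDAH, formerly C2orf43, 4 HPRT-targeted libraries and 7 negative controls. All 6 groups therefore received Cas9 and electroporation, and the RNA came from the treated population rather than from edited clones. In such bulk RNA, fewer cells expressing a gene and less of its RNA per cell cannot be told apart. The labels do not say that replicates were separate cultures, so each p-value measures only the spread between these samples, which may be technical. Sample titles name series A or B for the control libraries only. The set of each deletion group is thus an assignment not read from its titles, and every comparison of a deletion with a control rests on it.

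Total counts ranged from 3.43 to 7.75 M (mega) per library, and 7 of the 27 libraries stood apart from the others of their set in correlation across genes. They were HPRT-targeted replicate 3 and SMAD3 deletion replicate 4 in set A, and HPRT-targeted replicates 2 and 4, LDAH deletion replicate 4 and negative control replicates 6 and 7 in set B. Each result on a marker is given with all libraries, and the values without these 7 libraries stand beside it or follow the account of the single markers. The targeted genes were compared with the labels by group mean: SMAD3 had a mean of 98.5 CPM (counts scaled to the library's total, per mega) in its deletion group and 134 CPM in the control, LDAH 7.08 against 12.04 CPM, and HPRT1 34.1 against 42.8 CPM (set A) and 41.5 against 48.9 CPM (set B). The SMAD3 deletion libraries, at 75.0 to 110.1 CPM, lay below their negative controls, at 121 to 143 CPM. Among all genes tested, 2.85% were lower in that deletion without overlap with the control. For SMAD3 the deletion libraries overlapped the HPRT-targeted libraries of set A, at 105 to 159 CPM. Levels overlapped for LDAH (2.67 to 10.6 against 7.70 to 18.02 CPM) and for HPRT1 in both sets, so the target does not check single libraries of those groups. Endothelial identity genes were read for the cell type: 21 of 22 were measured, PECAM1 averaged 354 CPM and CDH5, which encodes VE-cadherin, 210 CPM. Other genes of this list were low: VWF averaged 2.81, SOX18 2.78 and EMCN 5.83 CPM. VWF and SOX18 were each at 0 in 3 libraries. The sum over these 21 genes ranged from 1577 to 3264 CPM over the 7 negative controls of set B and from 2794 to 2870 CPM over those of set A.

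Counts were tested by the quasi-likelihood method of edgeR, with p adjusted over the whole table (Benjamini-Hochberg) and a threshold of 0.05. None of the markers was called in any of the 10 comparisons (0 of 7 tested in set A and 0 of 8 elsewhere). Against the negative controls the share of all genes called was 0% for both deletions and for HPRT targeting in each set and in both sets together. It was also 0% for each deletion against HPRT targeting and for both tests of a difference between effects, and 9.6% for the negative control of set B against that of set A. DESeq2 and limma voom also called none of the markers in these comparisons. At an unadjusted p under 0.05 against the negative control of the set, SNAI1 passed in the LDAH deletion (lower) and ACTA2 passed in the LDAH deletion and in HPRT targeting of set A (higher). Among all genes, 4.61% passed that looser threshold in the LDAH deletion and 2.24% in HPRT targeting of set A. No marker passed it in the SMAD3 deletion, where 6.78% of genes did, or in HPRT targeting of set B, where 1.75% did.

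**Figure D1:**
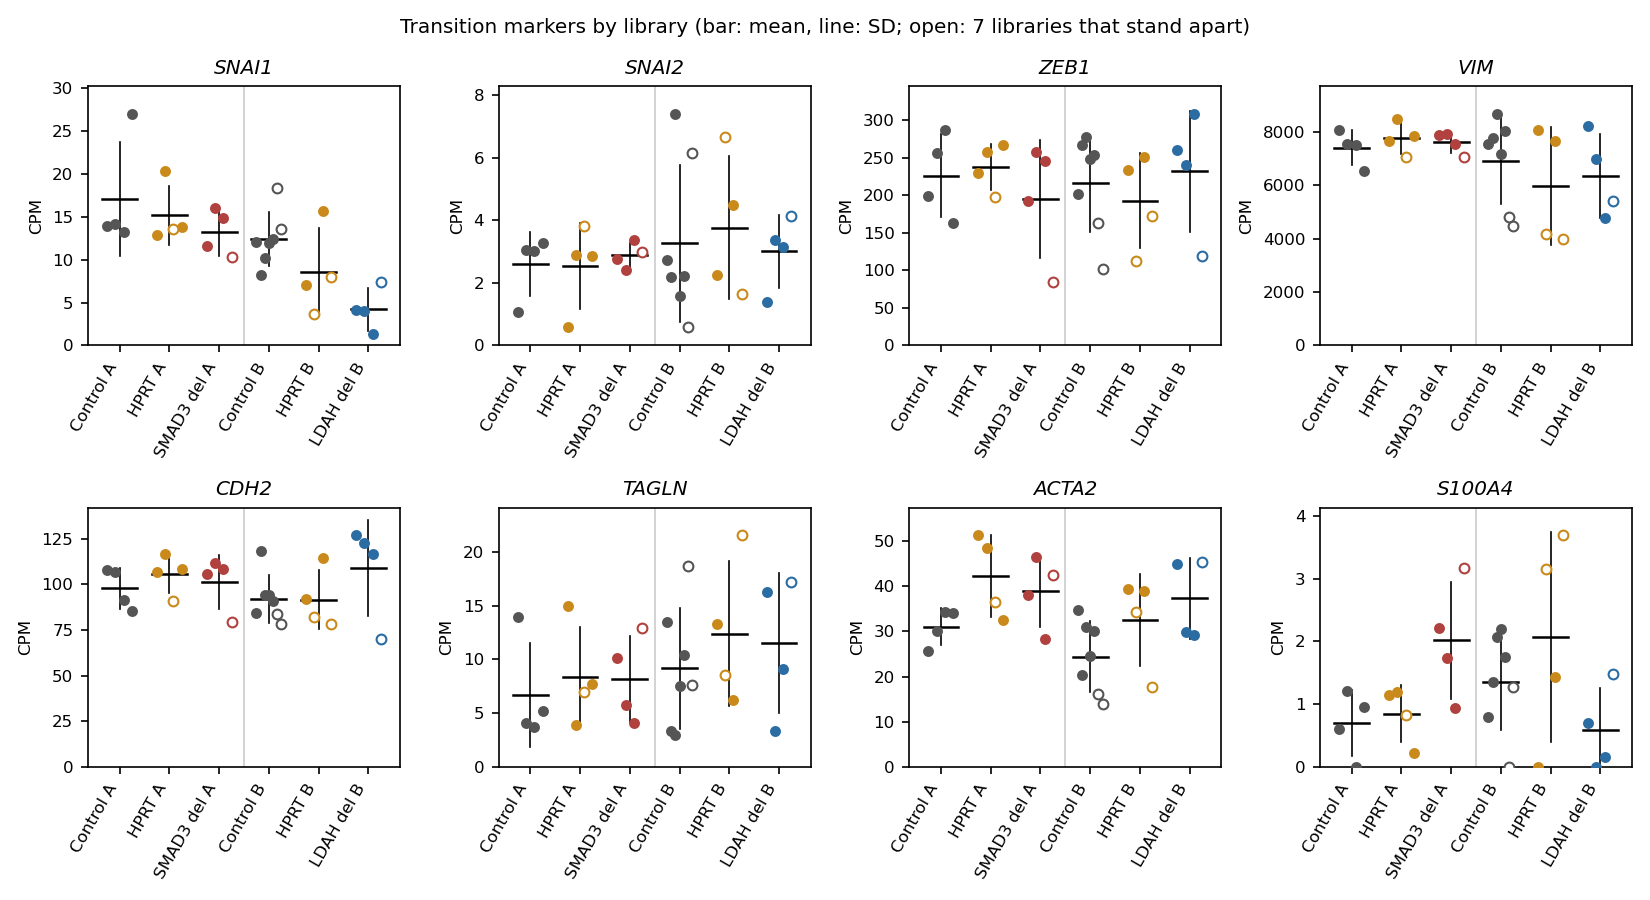
Level of each marker in CPM (linear axes from 0) in every library of the 6 groups, with the mean as a bar and the SD as a line; open circles are the 7 libraries that stand apart. SNAI1 in the 4 LDAH deletion libraries, at 1.32 to 7.41 CPM, lay below all 7 negative controls of set B, at 8.25 to 18.3 CPM.

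SNAI1 (ENSG00000124216; GRCh38 chromosome 20, 49982999 to 49988886, plus strand) encodes Snail, a zinc finger repressor that acts early in the transition. In the LDAH deletion its level was 4.16, 4.00, 1.32 and 7.41 CPM in replicates 1 to 4, from 24, 25, 8 and 25 counts. The 7 negative controls of set B spanned 8.25 to 18.3 CPM with a median of 12.03 CPM. HPRT-targeted cells of that set gave 7.01, 3.70, 15.7 and 7.996 CPM. All 4 deletion libraries therefore lay below all 7 negative controls, while they overlapped the HPRT-targeted group. Among all 11769 genes tested, 0.697% were lower in the LDAH deletion without overlap with the control.

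The mean of SNAI1 was 4.22 ± 2.49 CPM (SD, n = 4) in the LDAH deletion and 12.4 ± 3.13 CPM (SD, n = 7) in its negative control. This gave a log2 fold change of -1.58 ± 0.45 (SE; 95% interval -2.53 to -0.63), an unadjusted p of 0.00277 and an edgeR adjusted p of 0.702. Against HPRT-targeted cells it was -1.06 ± 0.49, with an unadjusted p of 0.0439, where 4.22% of all genes passed 0.05, and an edgeR adjusted p of 0.948. Across the alternatives against the negative control other than leaving out 1 library, the fold change stayed between -1.80 and -1.57 and the adjusted p between 0.0206 and 0.852. The lowest of these came without the 7 libraries that stand apart, where SNAI1 fell by 1.80 ± 0.41 on the log2 scale and was called. In that fit 1.74% of genes were called, and 8.92% had groups that did not overlap. Leaving out single libraries moved the fold change between -1.97, without deletion replicate 4, and -1.27, without deletion replicate 3, and called it in none of these fits. The numbers in the library labels run from 50 to 54 for the LDAH deletion and from 55 to 67 for the controls of set B, so anything in handling that follows these numbers cannot be told apart from the deletion. The same holds for the SMAD3 deletion, whose numbers run from 10 to 13 while those of the controls of set A run from 26 to 33.

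**Figure D2:**
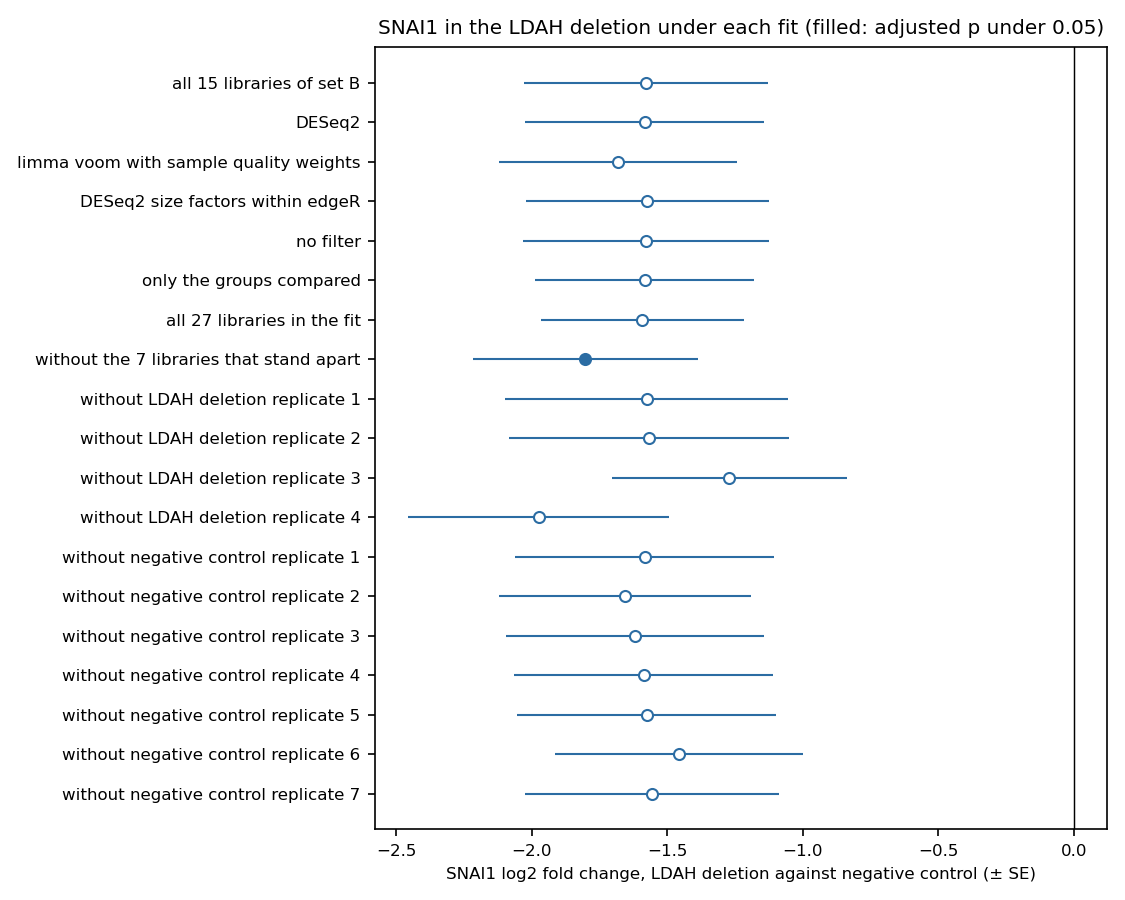
Log2 fold change of SNAI1 in the LDAH deletion against the negative control of set B (horizontal axis, points with SE bars) under each fit, 1 row per fit; a filled point marks an adjusted p under 0.05. Every fit lies between -1.97 and -1.27, and the fit without the 7 libraries that stand apart is the filled one.

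SNAI1 in set A stood at 11.6, 16.05, 14.9 and 10.3 CPM in the SMAD3 deletion. Its negative control gave 13.9, 14.2, 13.2 and 27.03 CPM, and HPRT-targeted cells gave 12.9, 20.3, 13.6 and 13.9 CPM. The 3 groups overlapped, and each control group held 1 library well above its other 3. The log2 fold change was -0.35 ± 0.25 for the SMAD3 deletion and -0.17 ± 0.25 for HPRT targeting. Without negative control replicate 4, the library at 27.03 CPM, HPRT targeting gave 0.14. Without the 7 libraries these were -0.26 ± 0.23 and -0.12 ± 0.24. For HPRT targeting in set B the value was -0.52 ± 0.42, and 0.063 ± 0.42 without the 7 libraries. The HPRT effect in set B minus that in set A was -0.35 ± 0.50. The difference between the 2 deletion effects (SMAD3 minus LDAH) was 1.22 ± 0.52, with an unadjusted p of 0.0267, where 3.64% of all genes passed 0.05, and an edgeR adjusted p of 1. The negative controls of the 2 sets differed by -0.46 ± 0.33 (set B minus set A). That difference was -0.63 ± 0.27 without the 7 libraries, with an edgeR adjusted p of 0.0792.

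SNAI2 (ENSG00000019549; chromosome 8, 48917604 to 48921740, minus strand) encodes Slug, a second Snail family repressor. It was near the limit of these libraries, at 0.572 to 7.40 CPM and 3 to 50 counts, and below 10 CPM in all 27. In the SMAD3 deletion it stood at 2.76, 2.41, 3.38 and 2.98 CPM, inside the range of 1.07 to 3.26 CPM of the negative control for 3 of the 4 libraries. The LDAH deletion gave 1.39, 3.36, 3.14 and 4.15 CPM, inside the range of its control, 0.572 to 7.40 CPM. The fold changes against the negative control were 0.17 ± 0.45 for the SMAD3 deletion, -0.12 ± 0.65 for the LDAH deletion and -0.04 ± 0.47 and 0.21 ± 0.64 for HPRT targeting in sets A and B. At this depth the 95% interval in the LDAH deletion ran from -1.49 to 1.24, so a change of that size in either direction was not detectable.

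ZEB1 (ENSG00000148516; chromosome 10, 31318495 to 31529814, plus strand) encodes a zinc finger and homeobox repressor of junction genes. The SMAD3 deletion libraries gave 193, 257, 245 and 84.7 CPM, and their negative controls gave 199, 256, 286 and 164 CPM. The LDAH deletion gave 260, 241, 309 and 118 CPM, against 102 to 278 CPM with a median of 248 CPM in the negative controls of set B. In both deletions the lowest library was replicate 4, 1 of those that stand apart. The log2 fold change was -0.20 ± 0.27 in the SMAD3 deletion, which became 0.040 ± 0.14 without the 7 libraries. It was, in the LDAH deletion, 0.10 ± 0.29 with all libraries and 0.10 ± 0.12 without the 7. HPRT targeting gave 0.07 ± 0.27 in set A and -0.16 ± 0.29 in set B.

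VIM (ENSG00000026025; chromosome 10, 17228259 to 17237593, plus strand) encodes vimentin, the main intermediate filament of mesenchymal cells, which endothelial cells in culture also make in quantity. It took 3998 to 8670 CPM in the 27 libraries. In the SMAD3 deletion it stood at 7884, 7917, 7530 and 7056 CPM, and in the negative control at 8069, 7523, 7497 and 6527 CPM. Its log2 fold change was 0.05 ± 0.09; the 95% interval of -0.14 to 0.24 was the narrowest of the 7 markers tested in that comparison. VIM in the LDAH deletion stood at 8225, 6970, 4760 and 5395 CPM. The negative controls of set B ranged from 4484 to 8670 CPM with a median of 7525 CPM. The LDAH deletion's log2 fold change was -0.13 ± 0.23 with all libraries. It was -0.25 ± 0.11 without the 7, with an unadjusted p of 0.0383, where 12.8% of all genes passed 0.05, and an edgeR adjusted p of 0.347. HPRT targeting gave 0.06 ± 0.09 (set A) and -0.21 ± 0.24 (set B), and the latter was 0.0059 ± 0.13 without the 7.

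CDH2 (ENSG00000170558; chromosome 18, 27950966 to 28177446, minus strand) encodes N-cadherin, the adhesion molecule of mesenchymal cells that endothelial cells carry beside VE-cadherin. The SMAD3 deletion gave 106, 112, 108 and 79.4 CPM, and its negative control gave 108, 107, 91.3 and 85.3 CPM. The LDAH deletion gave 127, 123, 117 and 70.2 CPM, and its negative control ranged from 78.2 to 118 CPM with a median of 90.9 CPM. The first 2 LDAH deletion libraries lay above every control and replicate 4 below every control. CDH2 had a log2 fold change of 0.06 ± 0.13 in the SMAD3 deletion and 0.24 ± 0.18 in the LDAH deletion. The former was 0.16 ± 0.10 and the latter 0.33 ± 0.14 without the 7 libraries. For the LDAH deletion the unadjusted p was then 0.0235, where 12.8% of all genes passed 0.05, and the edgeR adjusted p was 0.274. HPRT targeting gave 0.11 ± 0.13 in set A and -0.002 ± 0.18 in set B.

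S100A4 (ENSG00000196154; chromosome 1, 153543613 to 153550136, minus strand) encodes a calcium-binding protein that is used as a fibroblast marker. It had at most 18 counts in any library and was at 0 in 4 libraries, where 3 counts of the total would allow up to 0.401 to 0.889 CPM over the 27 libraries. The SMAD3 deletion gave 2.21, 1.74, 0.945 and 3.17 CPM and the negative control 0.611, 1.22, 0 and 0.958 CPM. The LDAH deletion gave 0.693, 0, 0.165 and 1.48 CPM and the controls of set B 0 to 2.20 CPM. These groups overlapped. Without the 7 libraries, the 3 remaining LDAH deletion libraries, at 0 to 0.693 CPM, lay below the 5 remaining controls, at 0.802 to 2.20 CPM, where 8.92% of all genes had groups that did not overlap. S100A4 did not pass the filter on low counts in set A. Its log2 fold change in set B was -1.28 ± 1.1199 for the LDAH deletion and 0.62 ± 0.99 for HPRT targeting, and without the 7 libraries -2.47 ± 1.27 and -1.07 ± 1.32. The difference of the 2 deletion effects (SMAD3 minus LDAH) was 2.85 ± 1.36. Its unadjusted p was 0.0461, where 3.64% of all genes passed 0.05, and its edgeR adjusted p was 1. The fit of all 27 libraries kept S100A4, although the filter removed it in set A alone. Its counts were 7 to 17 in the SMAD3 deletion, 0 to 6 in the negative control of set A and 0 to 5 in the LDAH deletion. That p is therefore not read as support for a difference. S100A4 overlaps S100A3 on the same strand in the annotation, and S100A3 was as low, at 0 to 5.33 CPM.

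ACTA2 (ENSG00000107796; chromosome 10, 88935074 to 88991339, minus strand) encodes smooth muscle alpha-actin. Like TAGLN below, it had a positive fold change against the negative control in both deletions and in HPRT targeting of both sets. RefSeq (GRCh38.p14) lists 2 starts for it, and 3' end counts do not tell them apart. The 250 bases before each start are shown because they hold different factor motifs. Capitals in the upstream sequence (chr10:88991338-88991587, minus strand) mark a match to a single p53 consensus decamer, only a part of a full site. It runs from -219 to -210, where -1 is the base before the start. Capitals in the downstream sequence (chr10:88952774-88953023, minus strand) mark 2 elements like the CArG box of serum response factor with 1 base outside the A or T core, from -121 to -112 and from -71 to -62.
ACTA2 upstream start: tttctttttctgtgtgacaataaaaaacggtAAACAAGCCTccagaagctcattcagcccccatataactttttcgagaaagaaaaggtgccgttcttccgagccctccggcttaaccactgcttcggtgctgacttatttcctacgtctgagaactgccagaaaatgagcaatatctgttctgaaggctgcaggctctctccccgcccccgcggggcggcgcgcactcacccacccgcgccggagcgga
ACTA2 downstream start: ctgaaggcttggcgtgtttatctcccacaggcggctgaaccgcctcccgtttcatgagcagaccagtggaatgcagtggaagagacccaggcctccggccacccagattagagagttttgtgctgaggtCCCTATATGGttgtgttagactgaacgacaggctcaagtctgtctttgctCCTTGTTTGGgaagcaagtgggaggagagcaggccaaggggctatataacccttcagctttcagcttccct
Searched on both strands without regard to overlap between motifs, the p53 decamer occurred in 5.57% of 35116 promoters of that length, the CArG-like element in 7.04% and a CArG box with a full A or T core in 1.16%. Such matches are descriptions of sequence and say nothing about binding. Among the other markers, RefSeq promoters were matched for VIM, ZEB1, CDH2, S100A4 and CNN1, 14 promoters in all with those of ACTA2. None of the promoters of these other markers held a CArG-like element or a p53 decamer. The E-box, SMAD-binding element and TATA box were searched too, and no ACTA2 promoter held any of them. An E-box occurred in 17.5% of all promoters, and in promoters of S100A4 and ZEB1. A SMAD-binding element occurred in 13.6%, and in promoters of ZEB1, CDH2 and CNN1. The TATA box occurred in 10.7%, and in promoters of S100A4 and CDH2. SNAI2 was left out of the search among markers, and SNAI1, TAGLN and TWIST1 had no promoter matched.

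In the SMAD3 deletion ACTA2 stood at 38.1, 46.5, 28.2 and 42.5 CPM. HPRT-targeted cells of set A gave 51.3, 48.4, 36.6 and 32.6 CPM, and the negative control gave 25.6, 30.2, 34.3 and 34.1 CPM. In the LDAH deletion it stood at 44.9, 29.8, 29.1 and 45.3 CPM and in HPRT-targeted cells of set B at 39.3, 34.2, 39.0 and 17.6 CPM. The negative controls of set B ranged from 13.99 to 34.6 CPM with a median of 24.5 CPM. The 3 groups overlapped within each set, and the 2 lowest negative controls, replicates 6 and 7 of set B, were libraries that stand apart.

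The log2 fold change of ACTA2 was 0.33 ± 0.18 in the SMAD3 deletion and 0.44 ± 0.18 in HPRT targeting of set A, which share their 4 negative controls. In set B it was 0.61 ± 0.28 in the LDAH deletion and 0.42 ± 0.28 in HPRT targeting, which share 7. HPRT targeting over both sets gave 0.42 ± 0.18, with an unadjusted p of 0.0286, where 3.19% of all genes passed 0.05, and an edgeR adjusted p of 0.937. The size of the HPRT effect in set B minus that in set A was -0.03 ± 0.36, and the SMAD3 deletion effect minus that of LDAH was -0.28 ± 0.36. Against HPRT-targeted cells, the SMAD3 deletion differed by -0.11 ± 0.18 and the LDAH deletion by 0.19 ± 0.32. In the LDAH deletion against the negative control the value was 0.29 ± 0.21 without the 7 libraries. In HPRT targeting of set B it was 0.48 ± 0.23 without them, and the 2 remaining HPRT-targeted libraries lay above all 5 remaining controls, where 8.58% of all genes had groups that did not overlap. The 3' end of ACTA2 lies inside STAMBPL1, which is on the opposite strand and averaged 0.820 to 2.34 CPM by group, and ACTA2 overlaps FAS at its upstream start by 758 bases. Whether the counting used the strand is not given in the sources used here.

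TAGLN (ENSG00000149591; chromosome 11, 117199321 to 117204782, plus strand) encodes transgelin, an actin-binding protein of smooth muscle and a target of serum response factor. The SMAD3 deletion gave 10.1, 5.75, 4.05 and 12.9 CPM and its negative control 13.9, 4.05, 3.67 and 5.18 CPM. The LDAH deletion gave 16.3, 3.36, 9.09 and 17.2 CPM, and its negative controls ranged from 2.96 to 18.7 CPM with a median of 7.63 CPM. Libraries of 1 group thus differed by up to several times, and the groups overlapped. TAGLN had a log2 fold change of 0.26 ± 0.49 in the SMAD3 deletion, 0.31 ± 0.52 in the LDAH deletion, and 0.31 ± 0.49 and 0.43 ± 0.52 for HPRT targeting in sets A and B. In the SMAD3 deletion it was -0.038 ± 0.44 without the 7 libraries. The 3' end of TAGLN lies inside PCSK7 on the opposite strand, with 446 bases shared, and PCSK7 had means of 22.9 to 36.3 CPM by group.

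Without the 7 libraries, HPRT targeting of set A gave 0.51 ± 0.17 for ACTA2, with an unadjusted p of 0.00679, where 5.94% of all genes passed 0.05, and an edgeR adjusted p of 0.819, and the SMAD3 deletion gave 0.28 ± 0.17. Over both sets ACTA2 was at 0.49 ± 0.13 in HPRT targeting, with an edgeR adjusted p of 0.287. For SNAI2 the values of the SMAD3 and LDAH deletions were 0.16 ± 0.46 and -0.30 ± 0.67, and those of HPRT targeting -0.34 ± 0.50 in set A and 0.076 ± 0.76 in set B. HPRT targeting of set A gave 0.15 ± 0.14 for ZEB1, 0.11 ± 0.08 for VIM, 0.17 ± 0.10 for CDH2 and 0.39 ± 0.44 for TAGLN. In set B it gave -0.041 ± 0.14 for ZEB1, 0.10 ± 0.16 for CDH2 and 0.35 ± 0.56 for TAGLN, and TAGLN was at 0.33 ± 0.48 in the LDAH deletion. VIM in the SMAD3 deletion was at 0.077 ± 0.08. All of these markers but SNAI1 in the LDAH deletion stayed uncalled in that fit. The share of all genes called there was 0.00864% in the SMAD3 deletion and also in HPRT targeting of set A. It was 0% in HPRT targeting of set B, 0.00825% over both sets and 1.74% in the LDAH deletion. With so few genes called, staying uncalled says little about the markers.

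Compared with HPRT-targeted cells, which received the same protein and a guide that cuts elsewhere, the deletions gave small differences in most markers. The SMAD3 deletion differed by 0.22 ± 0.45 in SNAI2, -0.27 ± 0.27 in ZEB1, -0.014 ± 0.09 in VIM, -0.046 ± 0.13 in CDH2 and -0.047 ± 0.48 in TAGLN, beside -0.18 ± 0.25 in SNAI1. For the LDAH deletion the differences were -0.34 ± 0.73 in SNAI2, 0.26 ± 0.33 in ZEB1, 0.081 ± 0.26 in VIM, 0.24 ± 0.20 in CDH2, -0.12 ± 0.59 in TAGLN and -1.90 ± 1.22 in S100A4. SNAI1, at -1.06 in the LDAH deletion, had the smallest p of these differences, ACTA2 included. Without the 7 libraries, the SMAD3 deletion differed from HPRT targeting by -0.14 ± 0.25 in SNAI1, 0.49 ± 0.51 in SNAI2, -0.11 ± 0.15 in ZEB1, -0.029 ± 0.08 in VIM, -0.018 ± 0.10 in CDH2, -0.43 ± 0.46 in TAGLN and -0.23 ± 0.18 in ACTA2. The LDAH deletion then differed by -1.86 ± 0.48 in SNAI1, -0.38 ± 0.83 in SNAI2, 0.14 ± 0.15 in ZEB1, -0.25 ± 0.14 in VIM, 0.23 ± 0.17 in CDH2, -0.023 ± 0.61 in TAGLN, -0.19 ± 0.26 in ACTA2 and -1.40 ± 1.496 in S100A4.

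HPRT targeting over both sets gave -0.36 ± 0.23 for SNAI1, 0.10 ± 0.45 for SNAI2, -0.066 ± 0.18 for ZEB1, -0.095 ± 0.15 for VIM, 0.041 ± 0.10 for CDH2, 0.38 ± 0.37 for TAGLN and 0.50 ± 0.62 for S100A4. Its effect in set B minus that in set A was 0.25 ± 0.84 for SNAI2, -0.24 ± 0.44 for ZEB1, -0.28 ± 0.29 for VIM, -0.12 ± 0.23 for CDH2, 0.11 ± 0.78 for TAGLN and 0.28 ± 1.34 for S100A4. The SMAD3 deletion effect minus that of LDAH was 0.28 ± 0.84 for SNAI2, -0.32 ± 0.43 for ZEB1, 0.16 ± 0.29 for VIM, -0.20 ± 0.23 for CDH2 and -0.045 ± 0.78 for TAGLN. Of the values in these contrasts, those of SNAI1 and S100A4 between the deletions and of ACTA2 over both sets had an unadjusted p under 0.05. The value of S100A4 rests on the few counts given above, and set A alone did not keep the gene. The negative controls of set B minus those of set A were at 0.33 ± 0.56 for SNAI2, -0.067 ± 0.29 for ZEB1, -0.098 ± 0.19 for VIM, -0.091 ± 0.15 for CDH2, 0.44 ± 0.52 for TAGLN and 0.97 ± 0.90 for S100A4.

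In these contrasts too the libraries that stand apart moved several values. Without them, HPRT targeting over both sets gave -0.037 ± 0.21 for SNAI1, -0.13 ± 0.45 for SNAI2, 0.059 ± 0.10 for ZEB1, 0.057 ± 0.05 for VIM, 0.14 ± 0.09 for CDH2, 0.37 ± 0.37 for TAGLN and -0.28 ± 0.70 for S100A4. The difference of the HPRT effects was 0.18 ± 0.46 for SNAI1, 0.39 ± 0.89 for SNAI2, -0.20 ± 0.21 for ZEB1, -0.11 ± 0.17 for VIM, -0.079 ± 0.18 for CDH2, -0.057 ± 0.80 for TAGLN, -0.040 ± 0.30 for ACTA2 and -1.41 ± 1.43 for S100A4. Between the deletions, SNAI1 was at 1.56 ± 0.45, with an unadjusted p of 0.00179 and an edgeR adjusted p of 0.131. S100A4 was at 3.74 ± 1.37 there and VIM at 0.34 ± 0.15, with unadjusted p of 0.0108 and 0.0362, where 9.3% of all genes passed 0.05. For S100A4 the limit of few counts holds here too. The others were SNAI2 at 0.47 ± 0.82, ZEB1 at -0.044 ± 0.20, CDH2 at -0.16 ± 0.17, TAGLN at -0.34 ± 0.75 and ACTA2 at 0.016 ± 0.28. The negative controls differed by 0.33 ± 0.53 in SNAI2, 0.14 ± 0.13 in ZEB1, 0.083 ± 0.10 in VIM, -0.022 ± 0.11 in CDH2, 0.16 ± 0.48 in TAGLN, -0.14 ± 0.18 in ACTA2 and 1.25 ± 0.83 in S100A4. No marker was called in any of these 4 contrasts. The share of all genes called was 28.2% between the negative controls and 0.55% between the deletions. It was 0.00825% for HPRT targeting over both sets and 0.00809% for the difference of the HPRT effects.

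**Figure D3:**
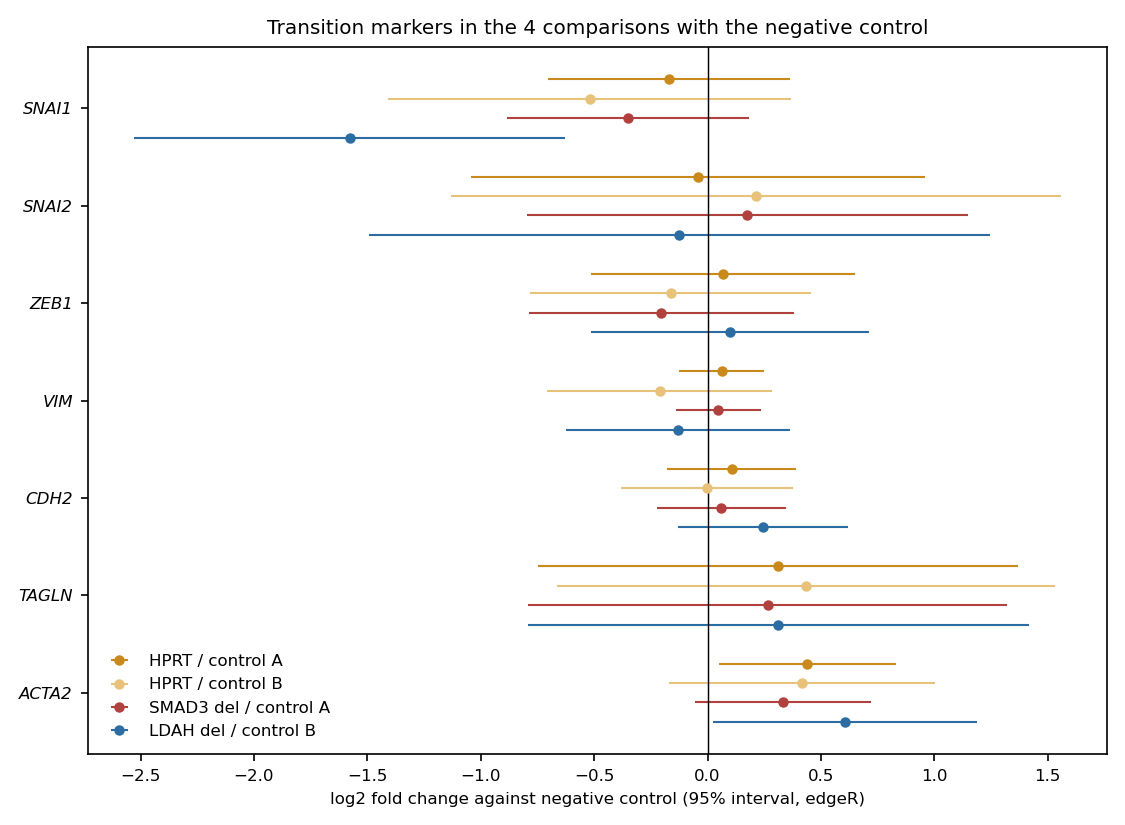
Log2 fold change (horizontal axis) of 7 markers against the negative control in the 2 deletions and the 2 HPRT-targeted groups, with 95% intervals from edgeR. SNAI1 in the LDAH deletion, at -1.58, lies farthest from 0, and all 4 values of ACTA2, at 0.33 to 0.61, lie above it.

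As a group, 5 of 7 tested markers had a positive and 2 a negative fold change in the SMAD3 deletion, with a median of 0.06 against 0.001 over all genes tested. Under LDAH deletion 4 were positive and 4 negative, with a median of -0.01 against 0.01. HPRT targeting over both sets had 5 positive and 3 negative, with a median of 0.07 against -0.02. The medians of the markers thus lay close to those of all genes. Signs were mixed within the regulators and within the other markers in the LDAH deletion, and none was called. SNAI1 was at -1.58, SNAI2 at -0.12 and ZEB1 at 0.10. VIM was at -0.13, S100A4 at -1.28, CDH2 at 0.24, TAGLN at 0.31 and ACTA2 at 0.61.

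The 7 libraries that stand apart differed from the rest of their set in several markers, described here without a test because they were chosen on the expression of all genes. ZEB1 in the 5 such libraries of set B was at 102 to 173 CPM, below all 10 others at 201 to 309 CPM. In set A the 2 such libraries were at 84.7 and 198 CPM against 164 to 286 CPM. CDH2 in set B was at 70.2 to 83.5 CPM in them and 84.4 to 127 CPM in the others. The share of all genes that separated these libraries in the same way was not counted. The separation of ZEB1 and CDH2 is therefore not read as particular to them. The mean log2 difference was -0.95 for ZEB1, -0.71 for VIM and -0.41 for CDH2 in set B, and 0.85 for TAGLN. In set A the same differences were -0.84, -0.12, -0.30 and 0.54. Ribosomal protein genes took 14.9% to 17.3% of the counts in those of set B and 9.35% to 11.3% in the others, and 15.3% to 16.4% against 11.7% to 14.5% in set A.

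**Figure D4:**
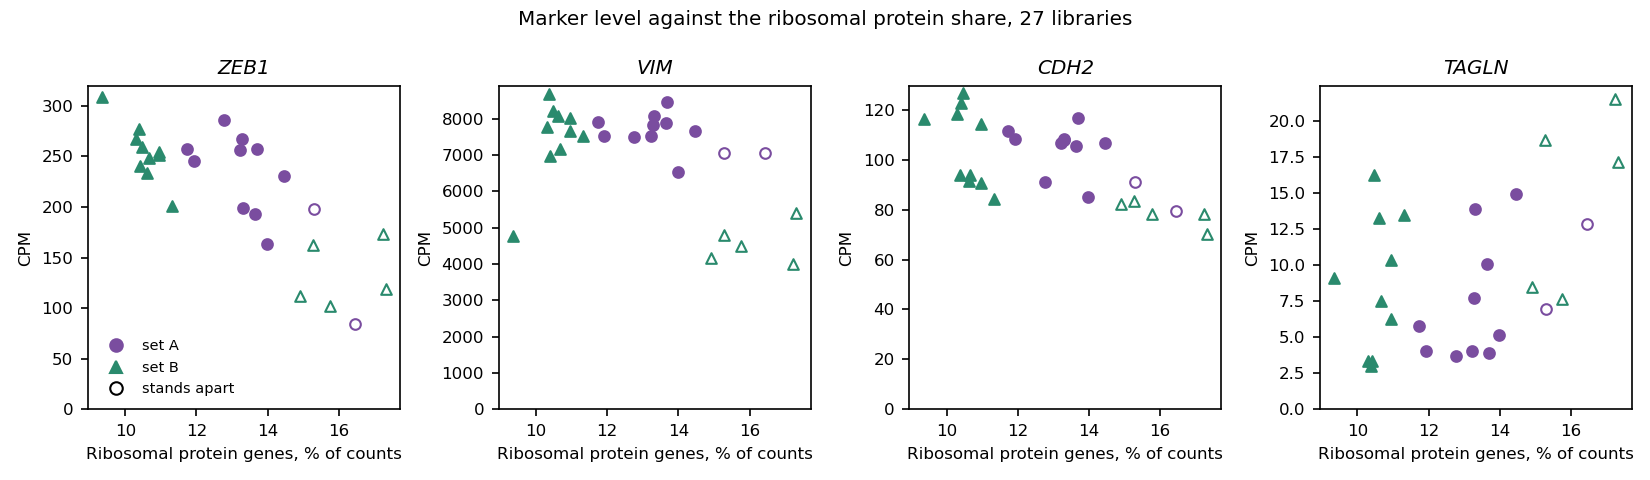
Level of ZEB1, VIM, CDH2 and TAGLN in CPM (vertical axes, linear from 0) against the share of counts from ribosomal protein genes (horizontal axis, percent) in the 27 libraries; circles are set A, triangles set B, and open symbols the 7 libraries that stand apart. The open triangles, at 14.9% to 17.3%, hold the lowest ZEB1 levels of set B, 102 to 173 CPM.

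Whether markers varied together between replicates was examined for the 5 with a mean of at least 10 CPM, SNAI1, ZEB1, VIM, CDH2 and ACTA2, over the 20 libraries that do not stand apart, after removal of group means. None of the 10 pairs passed a permutation test within groups with Benjamini-Hochberg adjustment, and the size of Pearson's r ran from 0.01 to 0.40. The pair with the largest size was SNAI1 and ZEB1, with r = -0.40 and Spearman's rho of -0.33 (permutation p of 0.130 and adjusted p of 0.373). It was -0.11 without the 2 libraries farthest from the median of SNAI1. Over all 27 libraries, the 7 that stand apart included, 4 pairs passed, led by ZEB1 and CDH2 at r = 0.78 and VIM and ACTA2 at r = 0.64. Why more pairs passed there was not tested.

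The genes whose group-centred levels lay closest to each marker among 8464 genes over the same 20 libraries were SELENOF (r = 0.92), PNMA1 and TRAF7 for SNAI1, KTN1 (0.90), NSD1 and BAZ1B for ZEB1, TMEM101 (0.89), PFKM and ZBED5-AS1 for VIM, TFRC (0.85), ASCC3 and SMNDC1 for CDH2, and NPDC1 (0.82), DYNLT2B and TMEM255B for ACTA2. These are the highest of all genes compared, over few libraries that share a set and a protocol. Over all 27 libraries KTN1 stayed at 0.89 with ZEB1, whereas TMEM101 was at -0.49 with VIM.

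Other genes of the transition were read from fixed lists, and no gene of any of these 12 lists was called in the deletion or HPRT comparisons with all libraries. In the SMAD3 deletion, the TGF-beta genes had 11 of 19 positive fold changes and a median of 0.02. Those with the smallest p were SMAD3 itself, at -0.44 ± 0.14, and SKIL, a repressor of SMAD proteins, at 0.31 ± 0.12. Contractile genes were split 13 to 12, and the smallest p were those of TGFB1I1 (Hic-5, a focal adhesion protein) at -0.52 ± 0.15 and SRF (serum response factor) at -0.51 ± 0.18. Endothelial identity genes had 14 of 21 negative values with a median of -0.12, and other transition factors 8 of 13 with a median of -0.11. Mesenchymal surface and matrix genes had 14 of 20 negative values with a median of -0.09. Of all 11467 genes tested, 5767 were positive. None of these 3 leans was present without the 7 libraries, where endothelial genes had 10 of 21 negative values and a median of 0.0019, other transition factors 6 of 13 and 0.029, and mesenchymal genes 9 of 20 and 0.011.

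Contractile genes in the LDAH deletion had 21 of 26 positive fold changes with a median of 0.15, and mesenchymal surface and matrix genes 16 of 20 with a median of 0.13, against 6084 of 11769 and 0.01 over all genes. They had, without the 7 libraries, 17 of 26 with a median of 0.097 and 14 of 21 with a median of 0.075. The contractile genes with the smallest p were TPM1 (tropomyosin) at 0.36 ± 0.14 and CNN3 (acidic calponin) at -0.79 ± 0.31. Among TGF-beta genes they were CCN1, a matricellular target, at -0.89 ± 0.22 with an edgeR adjusted p of 0.693, and ACVRL1 (the receptor ALK1) at 0.43 ± 0.15. Among endothelial genes they were EGFL7 at 0.78 ± 0.21 and SOX17 at -0.50 ± 0.21, with 12 of 21 genes positive. ID1 and ID3, inhibitors of bHLH factors, stood at -0.45 ± 0.21 and -0.38 ± 0.27.

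Without the 7 libraries, 8 genes of the lists were called in the LDAH deletion against the negative control, SNAI1 among them. Of all 12153 genes tested in that fit, 212 (1.74%) were called. CCN1 fell by 1.10 ± 0.20 on the log2 scale, S100A6 by 0.83 ± 0.14, CDH5 by 0.80 ± 0.15, CNN3 by 0.72 ± 0.18, ID3 by 0.65 ± 0.16 and LMNA (lamin A/C) by 0.47 ± 0.11. EGFL7 rose by 0.74 ± 0.19. The edgeR adjusted p was 0.0206 for SNAI1 and between 0.00318 and 0.0465 for the others. Against HPRT-targeted cells in the same fit, 4 of these genes were called, where 0.634% of all genes were. CDH5 fell by 1.02 ± 0.18, CCN1 by 1.32 ± 0.24, S100A6 by 0.95 ± 0.17 and LMNA by 0.61 ± 0.14 on the log2 scale, with edgeR adjusted p from 0.00787 to 0.0373, while SNAI1, at -1.86, had an edgeR adjusted p of 0.0797. CCN1 was also called in the difference of the deletion effects (SMAD3 minus LDAH), at 1.16 ± 0.24 with an edgeR adjusted p of 0.0206, where 0.55% of genes were. In the SMAD3 deletion against HPRT targeting TGFB1I1 fell by 0.47 ± 0.09 and MMP14, a membrane metalloproteinase, rose by 0.62 ± 0.14, with edgeR adjusted p of 0.0307 and 0.0482, where 0.475% of genes were called.

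For HPRT targeting over both sets, the list genes with the smallest p included LMNB1 (lamin B1) at -0.36 ± 0.13, CD44 at 0.19 ± 0.08 and S100A16 at 0.18 ± 0.09. Endothelial genes had 17 of 21 negative values with a median of -0.08, against -0.02 over all genes. This turned, without the 7 libraries, to 5 of 21 negative, with a median of 0.085. Between the negative controls of the 2 sets, 9.6% of all genes were called, and 28.2% without the 7 libraries. Among the list genes called with all libraries, SRF was lower in set B by 1.74 on the log2 scale, ACTG1 by 0.87 and CCN1 by 1.31. TGFB1 was higher by 1.13, and the edgeR adjusted p of these 4 genes ran from 3.18e-07 to 0.0423. None of the 8 markers was called, the values of SNAI1 and ACTA2 being -0.46 ± 0.33 and -0.35 ± 0.24. At those shares, none called of 8 says little about the markers.

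Markers of other cell types were read beside these results. Of 12 smooth muscle genes 4 were measured, ACTA2 and TAGLN among them; SYNPO2 was at 0 in 20 libraries, and RGS5 averaged 793 CPM. Their sum ranged from 628 to 868 CPM in the SMAD3 deletion and 674 to 738 CPM in its control, and from 720 to 1241 CPM in the LDAH deletion and 476 to 1165 CPM in its control. Of 10 fibroblast genes 2 were measured, PDGFRA and FAP, with a sum of 1.43 to 28.3 CPM over the libraries. Epithelial and blood cell lists had 2 measured genes each, with sums of 0 to 3.05 CPM and 2.05 to 17.1 CPM. The part of other cell types in the marker levels was not tested.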

How the data were processed

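QuantSeq 3' RNA-seq libraries (86 cycles, single end) of 27 samples were used. The authors deposited a table of whole-number read counts for 14008 genes, and all 27 columns were used. Per the submitters' processing notes, edgeR 3.24.3 and hg38 were used; aligner, counting program and strand setting were not given in the sources used here. Symbols were matched by gene ID for 13949 genes in a name table and for 57 more in GENCODE; gene positions are those of GENCODE on GRCh38.

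Counts were fitted with edgeR 4.0.16 in R 4.3.3 (TMM scaling, filterByExpr by group, quasi-likelihood fit and two-sided test, Benjamini-Hochberg adjustment over all genes at 0.05). The fits held set A (12 libraries, 11467 genes), set B (15, 11769), the 19 control libraries (HPRT-targeted and negative) with set as covariate (11836), or all 27 (12055). The SE of a log2 fold change is its size over the square root of F. Levels are CPM (counts scaled to the library's total and by TMM factors) over all 27 libraries, with mean and SD; a count of 0 allows 3 counts, and such limits cover counting error only. Between genes, levels were not compared. The script was tested on simulated data. A library stands apart where its median correlation with its set was over 3 scaled median absolute deviations below the typical one; fits without them were added after seeing the data. Alternatives were DESeq2 1.42.0, limma 3.58.1 voom with sample quality weights, DESeq2 size factors, no filter, a mean of at least 10 CPM, only the groups compared, all 27 libraries, and leaving out each library.

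The markers and the gene lists were chosen with earlier results of these data known. Every marker tested is named in each comparison, with the 3 genes closest to it; from other lists, the 2 genes with the smallest p or up to 4 called ones, with some more of those called. ID3, LMNB1, CD44 and S100A16 were picked after their values were seen. Libraries within a group differed by at least 3.03 in chi-square per degree of freedom, so none was a copy. No label pairs the libraries.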

Additional observations from a re-analysis of the deposited data

Results flagged for a closer look

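A library was looked at again where it lay far from the rest of its group by Dixon's 95% criterion, which chance meets in about 1 of 20 groups. Of 48 marker and group pairs examined, 5 met it. SNAI1 stood at 27.03 CPM in negative control replicate 4 of set A, against 13.2 to 14.2 CPM in the other 3, and at 20.3 CPM in HPRT-targeted replicate 2 of set A, against 12.9 to 13.9 CPM. In negative control replicate 1 of set A, SNAI2 was the lowest at 1.07 CPM, against 3.03 to 3.26 CPM, and TAGLN the highest at 13.9 CPM, against 3.67 to 5.18 CPM. CDH2 stood at 118 CPM in negative control replicate 2 of set B, against 78.2 to 94.0 CPM in the other 6. None of these 5 values lies in a deletion group or in a library that stands apart, and 3 of them are in the negative control of set A.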

How the results depend on the processing

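The values below are log2 fold changes, and the cause of each change was not tested, unless the alternative itself removes libraries. Of 77 marker values, 18 changed sign without the 7 libraries that stand apart, 13 under limma voom, 1 under each of DESeq2 and DESeq2 size factors, and none under no filter. Under the 10 CPM filter 50 of the values could be fitted, since SNAI2 and S100A4, SNAI1 in set B, and TAGLN outside set B averaged less, and 1 changed sign. The next 2 alternatives did not cover every comparison. With only the groups compared 1 of 50 values changed sign, and with all 27 libraries in the fit none of 53 did. Against the negative control and without the 7, ZEB1 was 0.040 and TAGLN -0.038 in the SMAD3 deletion, and for HPRT targeting in set B SNAI1 was 0.063, VIM 0.0059, CDH2 0.10 and S100A4 -1.07; over both sets SNAI2 was -0.13, ZEB1 0.059, VIM 0.057 and S100A4 -0.28. ACTA2 was then -0.19 and VIM -0.25 in the LDAH deletion against HPRT targeting, ACTA2 0.016 in the difference of the deletion effects, SNAI1 0.18, TAGLN -0.057 and S100A4 -1.41 in the difference of the HPRT effects, and ZEB1 0.14 and VIM 0.083 between the negative controls. The number of markers called in the LDAH deletion against the negative control rose from 0 to 1 (SNAI1). CDH2 for HPRT targeting in set B, at -0.002 with all libraries, was 0.0056 under DESeq2, 0.073 under voom, 0.0053 with DESeq2 size factors, 0.0033 with the 10 CPM filter and 3.9e-05 with only the groups compared. Under voom, S100A4 was -1.08 for HPRT targeting in set B, and ACTA2 -0.023, VIM -0.079 and TAGLN 0.027 in the LDAH deletion against HPRT targeting. Under voom also, HPRT targeting over both sets gave -0.064 for SNAI2, 0.058 for ZEB1, 0.044 for VIM and -0.10 for S100A4, the difference of the HPRT effects 0.065 for ACTA2 and -1.52 for S100A4, and the negative controls 0.080 for ZEB1 and 0.040 for VIM. Over all 27 libraries, 4 pairs of markers passed the correlation test, against 0 over 20.

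Leaving out 1 library changed the sign in 71 of 952 fits, in 32 of the 77 values. For the SMAD3 deletion against the negative control these ranged from -0.095 to 0.30 for SNAI2, -0.36 to 0.057 for ZEB1, -0.0063 to 0.095 for VIM and -0.020 to 0.93 for TAGLN. HPRT targeting in set A ranged from -0.34 to 0.14 for SNAI1, -0.33 to 0.32 for SNAI2, -0.056 to 0.20 for ZEB1 and -0.14 to 0.98 for TAGLN. The LDAH deletion ranged from -0.32 to 0.22 for SNAI2 and -0.068 to 0.31 for ZEB1. HPRT targeting in set B ranged from -0.21 to 0.55 for SNAI2, -0.32 to 0.023 for ZEB1 and -0.13 to 0.067 for CDH2. Against HPRT targeting, the SMAD3 deletion ranged from -0.14 to 0.51 for SNAI2, -0.056 to 0.029 for VIM, -0.11 to 0.062 for CDH2, -0.33 to 0.40 for TAGLN and -0.21 to 0.018 for ACTA2, and the LDAH deletion from -0.58 to 0.087 for SNAI2, -0.068 to 0.26 for VIM, -0.38 to 0.29 for TAGLN and -0.015 to 0.29 for ACTA2. HPRT targeting over both sets ranged from -0.13 to 0.29 for SNAI2, -0.13 to 0.047 for ZEB1 and -0.017 to 0.080 for CDH2. The difference of the HPRT effects ranged from -0.17 to 0.60 for SNAI2, -0.53 to 0.56 for TAGLN, -0.13 to 0.17 for ACTA2 and -0.14 to 0.70 for S100A4, that of the deletion effects from -0.035 to 0.47 for SNAI2 and -0.34 to 0.60 for TAGLN, and the negative controls from -0.20 to 0.065 for ZEB1. No paired analysis was possible because the labels give no replicate numbers that groups share. SNAI2, S100A4 and TAGLN rest on few counts, which limits their intervals.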
